A study of Mus musculus with 6 samples.

Results

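A set of 10 genes forms the brake on the cell cycle examined here, namely the 7 inhibitors of cyclin-dependent kinases (Cdkn1a, Cdkn1b, Cdkn1c, Cdkn2a, Cdkn2b, Cdkn2c and Cdkn2d) and the 3 genes of the retinoblastoma family (Rb1, Rbl1 and Rbl2). They were taken by symbol from the array annotation, and all 10 were found among the 22180 genes that had a feature naming no other gene. The cells were hair follicle stem cells taken from mouse skin at postnatal day 49 by flow sorting for CD34 and α6-integrin. The values of a genotype are given in the order of its arrays 1 to 3. There were 3 arrays of wild-type mice (WT) and 3 of transgenic mice (TG) carrying K14-sPLA2-IIA. In the transgenics the keratin 14 promoter, which is active in the basal layer of the epidermis and in the outer root sheath, stands before a secreted phospholipase A2, so the transgene is not limited to the sorted cells. The labels give no strain, sex or number of founder lines, and do not say whether the arrays of a genotype came from separate mice, and the p-values therefore reflect the spread among these arrays and nothing wider. The question was which genes the sorted cells express differently when the transgene is present.

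Cyclin-dependent kinases drive cells from G1 into S phase by phosphorylating the retinoblastoma proteins, which otherwise hold E2F transcription factors in check. The Cip/Kip proteins (p21, p27 and p57) bind many cyclin and kinase pairs, while the INK4 proteins (p15, p16, p18 and p19) bind CDK4 and CDK6 and keep cyclin D away. The relatives p107 and p130 form repressor complexes with E2F4, and p130 belongs to the DREAM complex that silences cell cycle genes in resting cells. Bulge stem cells rest through most of the hair cycle, and in normal mice day 49 falls in telogen, its resting phase.

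None of the 10 genes passed the threshold of 0.05 on the adjusted p in limma, and none differed at an unadjusted p under 0.05. Across all genes the adjusted threshold called 1 gene of 22180 (0.00451%), Pla2g2a, and an unadjusted p under 0.05 called 615 (2.77%). With arrays paired by number (replicate block), 0 of the 10 were at an unadjusted p under 0.05, against 8.45% of all genes. In none of the 10 did the 3 TG arrays all lie on one side of the 3 WT arrays, as they did for 7.2% of all genes (3.99% with TG higher and 3.21% with TG lower). The TG minus WT difference lay above 0 in 5 of the 10 (47.9% of all genes) and below 0 in 5, with a median of 0.0038 on the log2 scale against -0.0075 over all genes. Single differences ran from -0.27 for Cdkn2b to 0.35 for Cdkn2c. Every adjusted p was 0.99996 in limma, and the lowest unadjusted p was 0.272. The spread between arrays of 1 genotype was widest in Cdkn1a. Over all arrays of both genotypes, the median range of the 10 genes was 0.71 on the log2 scale, against 0.59 for all genes. Of the 10, 3 spanned at least 1 log2 unit (18.6% of all genes did) and 7 spanned less, so a wide spread was not shared by the whole set.

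The transgene was visible in every TG array, where Pla2g2a, the gene of the phospholipase, read 12.39 to 12.61 on the log2 scale against 5.75 to 6.77 in WT. The keratin genes Krt14 and Krt15 were high on all 6 arrays, at 13.80 to 14.24 and 13.21 to 13.51. The sort marker Itga6 read 10.01 to 10.49. Cd34, the other sort marker, ranged from 9.65 to 13.07. Its values were 9.78, 9.89 and 13.07 in WT and 11.57, 9.65 and 12.42 in TG, so the arrays numbered 3 were the highest of each genotype. These arrays also lay at one end of the first principal component, which held 64.6% of the variance. Array numbers come from the labels, which state no shared day or litter.

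Cdkn1a encodes p21, a Cip/Kip inhibitor that p53 and growth arrest signals induce. Its log2 value was 12.96, 12.84 and 10.81 in WT, and 12.40, 12.99 and 10.81 in TG. Both arrays numbered 3 were low, by almost the same amount, and the other 4 arrays were high in either genotype. The difference between genotypes was -0.14 ± 0.74 (SE, n = 3 per genotype), with a 95% interval from -1.91 to 1.64. That interval runs from 3.77-fold lower to 3.12-fold higher in TG. With arrays paired by number the SE was 0.16 (unadjusted p = 0.439 and adjusted p = 0.864 in limma), and without the arrays numbered 3 the difference was -0.21, with a 95% interval from -0.77 to 0.35. Within arrays of 1 number, TG minus WT was -0.56, 0.14 and 0.0063 for numbers 1, 2 and 3.

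RefSeq lists a pair of starts for Cdkn1a, and both upstream windows are shown because this gene varied most. The capitals in the first mark the core letters of a p53 site (CATGNNNNNNCATG, the same on both strands), whose first base lies 48 bases before the start. Those in the second mark GC boxes (GGGCGG, searched on both strands), the letters bound by Sp1, which begin 104 and 46 bases before the start. The p53 letters were found in 0.49% of 32851 RefSeq windows of 250 bases before a start and the GC box in 32.7%. The windows lie on the plus strand of GRCm38.p6 at chr17:29090729-29090978 and chr17:29093519-29093768.
Cdkn1a start 1: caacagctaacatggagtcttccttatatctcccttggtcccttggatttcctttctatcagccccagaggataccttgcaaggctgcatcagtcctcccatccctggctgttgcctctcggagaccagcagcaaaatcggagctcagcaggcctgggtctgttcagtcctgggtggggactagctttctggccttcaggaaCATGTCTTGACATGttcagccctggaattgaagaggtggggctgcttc
Cdkn1a start 2: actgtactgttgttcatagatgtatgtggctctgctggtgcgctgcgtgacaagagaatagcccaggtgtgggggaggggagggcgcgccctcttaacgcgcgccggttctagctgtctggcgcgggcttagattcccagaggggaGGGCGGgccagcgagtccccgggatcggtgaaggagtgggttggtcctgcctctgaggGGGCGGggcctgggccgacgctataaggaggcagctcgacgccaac

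Cdkn1b encodes p27, the Cip/Kip inhibitor that accumulates in resting cells. It read 8.37, 8.43 and 9.27 in WT and 9.25, 8.78 and 9.01 in TG. WT arrays 1 and 2 were the lowest of the 6, and WT array 3 was the highest, just above TG array 1. TG minus WT was 0.32 ± 0.27 (SE), with a 95% interval from -0.32 to 0.97. Without the arrays numbered 3 the difference was 0.62 ± 0.19 (SE, unadjusted p = 0.0222 and adjusted p = 0.783 in limma), where 5.92% of all genes were at an unadjusted p under 0.05. Within arrays of 1 number it was 0.88, 0.35 and -0.26, so the sign turned on the arrays numbered 3. Cdkn1c encodes p57, an imprinted Cip/Kip inhibitor found in quiescent stem cells. Its values were 7.02, 6.65 and 6.86 in WT and 6.41, 6.55 and 6.95 in TG, and the genotypes overlapped through TG array 3. Its difference was -0.21 ± 0.19 (SE), with a 95% interval from -0.65 to 0.24.

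**Figure D1:**
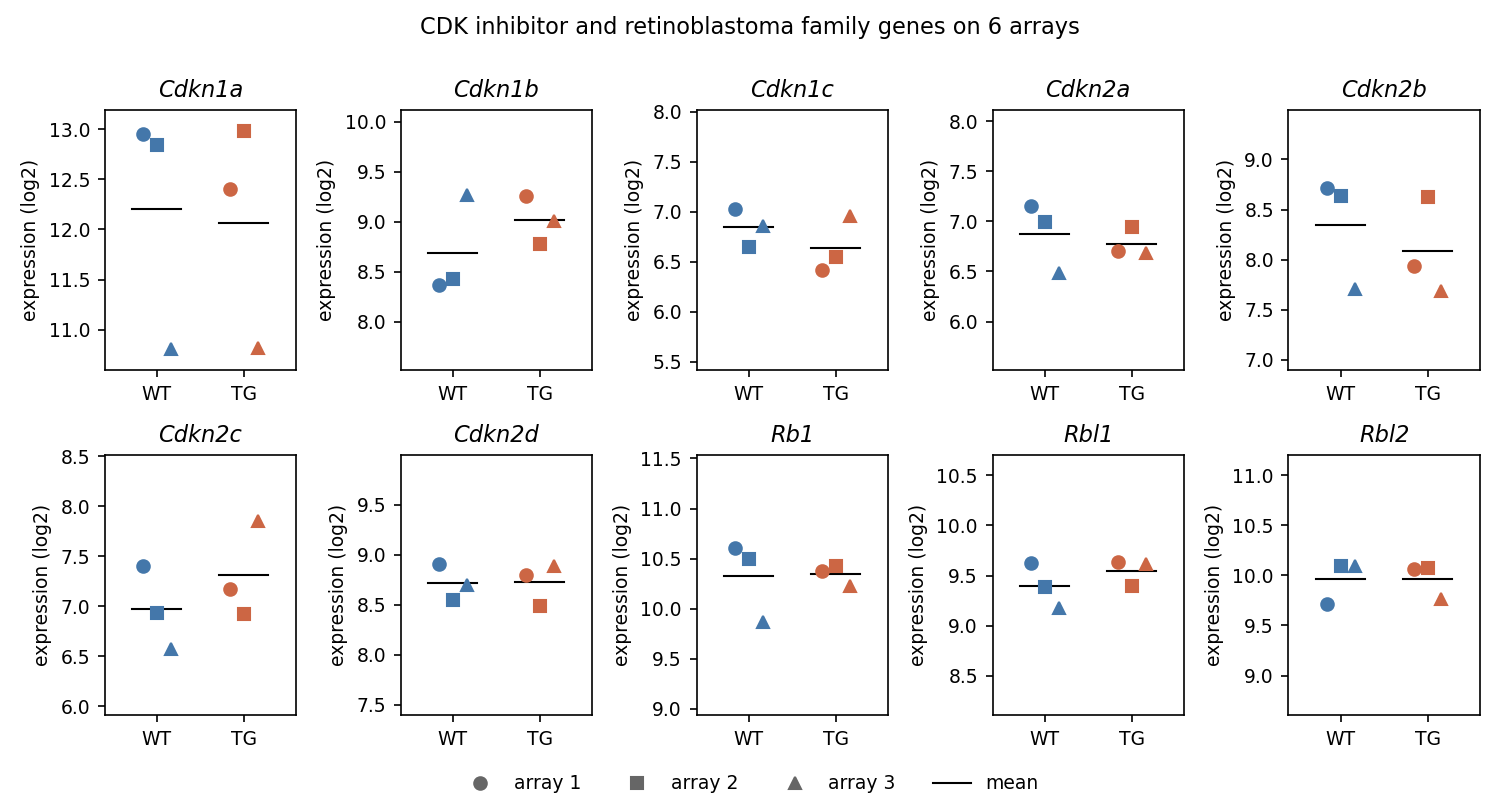
Expression (log2, vertical axes of equal length) of the 10 genes on the WT and TG arrays, with 1 point per array, its shape giving the array number, and a bar at the mean of 3. In Cdkn1a and Cdkn2b the arrays numbered 3 are the lowest of both genotypes, and no gene separates WT from TG.

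Among the INK4 genes, Cdkn2b was next to Cdkn1a in how it varied with the arrays numbered 3. It encodes p15, an inhibitor that TGF-β induces in epithelial cells. Its values were 8.71, 8.64 and 7.70 in WT and 7.94, 8.62 and 7.68 in TG. The arrays numbered 3 were the lowest of both genotypes, and TG array 1 lay close to them, unlike in Cdkn1a. TG minus WT was -0.27 ± 0.35 (SE), with a 95% interval from -1.10 to 0.57. Within arrays of 1 number the difference was -0.77, -0.012 and -0.020, so arrays 2 and 3 hardly differed between genotypes.

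Cdkn2b is shown beside Cdkn1a because both were lowest on the same arrays. Its window before the start lies on the minus strand of GRCm38.p6 at chr4:89311033-89311282. The capitals mark TGACGTCA, the cyclic AMP response element bound by CREB and ATF proteins and the same on both strands, which begins 46 bases before the start and was found in 1.55% of all windows. Neither the GC box nor the p53 letters occur in this window, so none of these motifs was shared with the Cdkn1a windows.
Cdkn2b: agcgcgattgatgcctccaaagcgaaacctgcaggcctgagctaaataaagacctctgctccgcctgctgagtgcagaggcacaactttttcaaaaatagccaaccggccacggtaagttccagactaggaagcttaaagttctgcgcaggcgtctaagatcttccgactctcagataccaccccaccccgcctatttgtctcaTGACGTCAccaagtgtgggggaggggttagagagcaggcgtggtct

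Cdkn2a encodes both p16 and p19Arf, which start from separate first exons and share later ones. RefSeq windows for the 2 starts lie at chr4:89282193-89282442 and chr4:89294620-89294869 on the minus strand of GRCm38.p6. The array value is 1 per gene, so the transcripts cannot be told apart. Cdkn2a read 7.15, 6.99 and 6.48 in WT and 6.71, 6.94 and 6.68 in TG. The lowest array of each genotype was again number 3, by little in TG. The genotypes differed by -0.097 ± 0.20 (SE), with a 95% interval from -0.58 to 0.38.

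Cdkn2c and Cdkn2d encode p18 and p19, INK4 inhibitors that are made in dividing and differentiating cells. Cdkn2c read 7.41, 6.93 and 6.57 in WT and 7.17, 6.93 and 7.85 in TG. The arrays numbered 3 were at opposite ends, the lowest in WT and the highest in TG. TG minus WT was 0.35 ± 0.31 (SE), with a 95% interval from -0.38 to 1.08, and it came from the arrays numbered 3. Within arrays of 1 number it was -0.23, -0.0038 and 1.28, and without the arrays numbered 3 it turned to -0.12 ± 0.20 (SE). Cdkn2d read 8.91, 8.54 and 8.70 in WT and 8.80, 8.49 and 8.89 in TG. Its difference was 0.0078 ± 0.17 (SE), with a 95% interval from -0.39 to 0.40, and its whole range over the 6 arrays was 0.42.

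**Figure D2:**
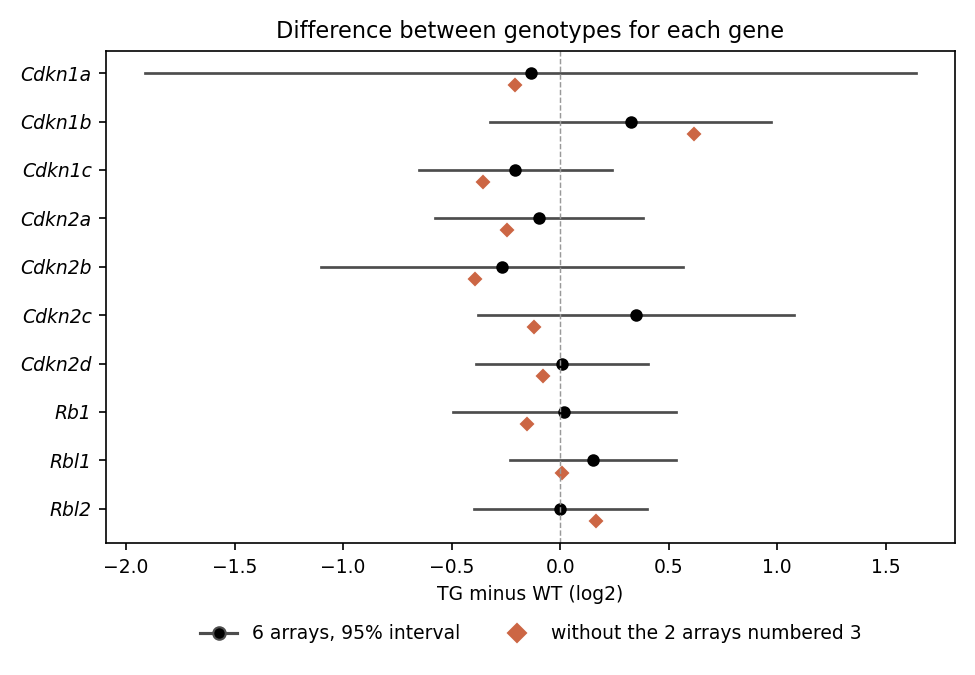
TG minus WT (log2, horizontal axis) for each of the 10 genes, with circles for the fit of 6 arrays, bars for its 95% interval and diamonds for the difference without the arrays numbered 3. Every bar crosses 0, the bar of Cdkn1a is the longest (-1.91 to 1.64), and the diamonds of Cdkn2c, Cdkn2d, Rb1 and Rbl2 lie on the other side of 0 from their circles.

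The retinoblastoma genes varied less than Cdkn1a. Rb1, which encodes the pocket protein that restrains the activating E2Fs, read 10.61, 10.50 and 9.86 in WT and 10.37, 10.43 and 10.22 in TG. WT array 3 was the lowest of the 6, and the TG arrays lay between it and the other WT arrays. TG minus WT was 0.019 ± 0.22 (SE), with a 95% interval from -0.49 to 0.53. The other Rb1 feature was dim, at 3.86 to 4.40, and differed by -0.23 ± 0.16 (SE). The annotation gives 2 more features to both Rb1 and Lpar6, a receptor gene that lies inside an Rb1 intron, and these were not used for Rb1. They differed by 0.41 ± 0.17 and -0.17 ± 0.23 (SE). The features naming Rb1 alone differed in sign, but neither was at an unadjusted p under 0.05 in limma.

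Rbl1 encodes p107, which is itself switched on by E2F as cells enter the cycle. It read 9.62, 9.39 and 9.18 in WT and 9.63, 9.39 and 9.62 in TG. The genotypes were level on arrays 1 and 2 and parted on array 3, by 0.44. The difference was 0.15 ± 0.16 (SE), with a 95% interval from -0.23 to 0.53. Rbl2 encodes p130, the pocket protein most abundant in resting cells. It read 9.71, 10.09 and 10.10 in WT and 10.06, 10.07 and 9.77 in TG. Rbl2 spanned 0.39 over the 6 arrays, the narrowest of the 10 genes, and TG minus WT was -0.00015 ± 0.17 (SE), with a 95% interval from -0.40 to 0.40.

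The Rbl1 window is shown for a match to E2F letters, whose binding was not tested, as E2F targets are described further on. It lies on the minus strand of GRCm38.p6 at chr2:157204535-157204784. The capitals mark an E2F match, searched on both strands as TTTGGCGC, TTTCCCGC, TTTCGCGC or TTTGCCGC, which begins 18 bases before the start. Such a match was found in 1.86% of all windows and in 2 of the 11 windows of the 10 genes, those of Rbl1 and of 1 Cdkn2a start. In all, 8 of the 10 genes had a RefSeq window, leaving Cdkn1c and Rb1 without one. The GC box was in 6 of the 11 windows, and an AP-1 site (TGANTCA, on both strands, found in 6.75% of all windows) was in 0.
Rbl1: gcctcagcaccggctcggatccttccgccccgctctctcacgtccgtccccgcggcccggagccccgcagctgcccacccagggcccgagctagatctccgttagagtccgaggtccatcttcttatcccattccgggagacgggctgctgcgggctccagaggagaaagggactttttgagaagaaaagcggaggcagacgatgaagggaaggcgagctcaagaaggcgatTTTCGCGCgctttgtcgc

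Between arrays of 1 genotype, Cdkn1a stood out. On the array numbered 3 it lay below the mean of the other 2 arrays by 4.27-fold in WT and 3.68-fold in TG. Of all genes, 2.62% were at least 2-fold lower on the array numbered 3 in both genotypes, and Cdkn1a was the only one of the 10 among them. Cdkn2b was 1.96-fold lower in WT and 1.51-fold lower in TG. Cdkn2a and Rb1 were also lowest on array 3 in both genotypes, which makes 4 of the 10 genes against 34.5% of all genes, and 0 of the 10 were highest there in both genotypes against 23.5%. The share of 4 in 10 is thus near the background. Rb1 in TG did not keep that order with quantile normalization, where array 3 lay 0.017 above the mean of the other 2.

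The cells on these arrays differed in their markers too. Suprabasal keratinocyte markers had a list mean of 11.85, 11.96 and 10.14 in WT and 10.76, 11.81 and 9.72 in TG, and 8 of 9 were lowest on array 3 in both genotypes. T cell markers had means of 8.24, 8.78 and 7.21 in WT and 7.66, 9.07 and 6.93 in TG, with 5 of 6 lowest on array 3 in both. Bulge stem cell markers went the other way, at 9.61, 9.60 and 11.11 in WT and 10.82, 9.58 and 10.83 in TG. Of these, 4 of 10 were highest on array 3 in both genotypes and 1 was lowest. All 6 endothelial markers were highest on array 3 in both, with list means of 5.50, 5.35 and 6.17 in WT and 5.57, 5.63 and 6.25 in TG. The mean of 5 basal keratinocyte markers lay between 11.62 and 11.73, but its members moved apart, with 3 lowest and 2 highest on array 3 in both genotypes. Krt14 lay 0.41 and 0.35 lower there in WT and TG than on the other arrays, and Col17a1, a hemidesmosome collagen gene, 0.62 and 0.41 higher. The array values carry no detection limit, so no marker is called absent, and the part of these markers in the Cdkn1a and Cdkn2b values was not tested. In sorted bulk samples, fewer cells of a type and less RNA per cell cannot be told apart.

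**Figure D3:**
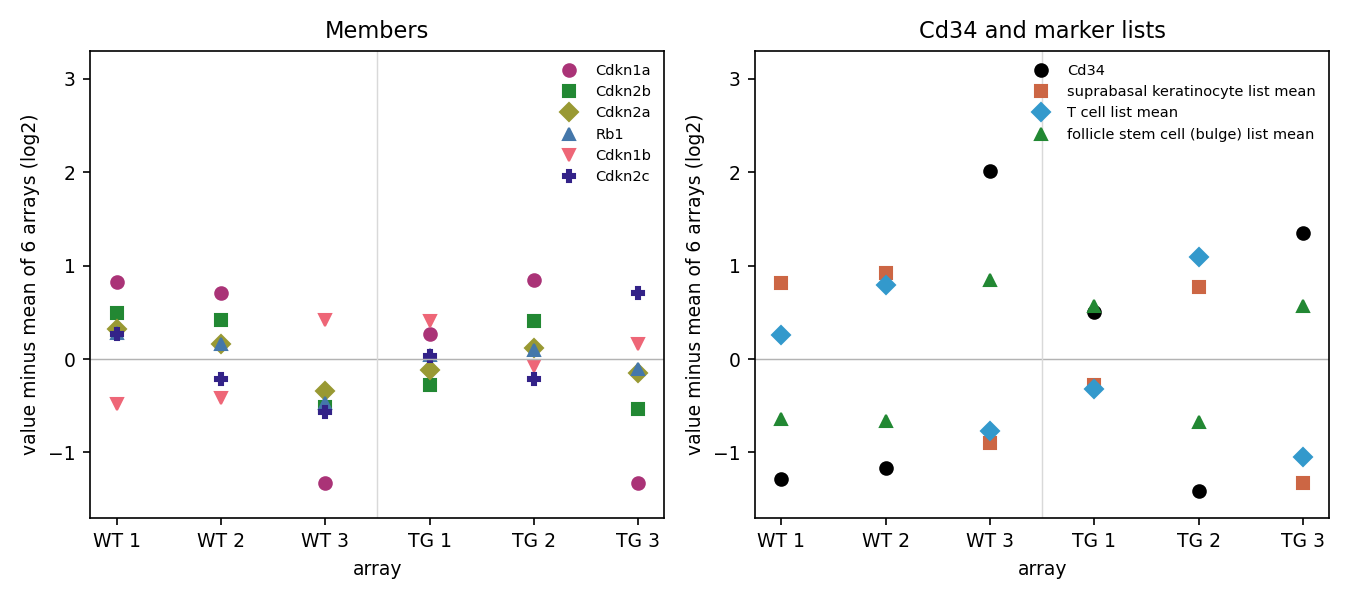
Log2 values minus the mean of 6 arrays, by array, for 6 of the 10 genes (left) and for Cd34 with the means of 3 marker lists (right), with 1 symbol per array. On WT array 3 and TG array 3, Cdkn1a lies at -1.33 and -1.32, where Cd34 lies at 2.01 and 1.35, and TG array 1 lies in between for Cdkn1a and Cd34.

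Of the 10 genes, 3 spanned at least 1 log2 unit over the 6 arrays (18.6% of all genes did), and the genes with the most similar profiles were found for these. Likeness was the root mean square difference between profiles centred on their own means. For Cdkn1a the closest were Rab25, encoding a small GTPase of epithelial vesicle traffic, at 0.078, Zfp750, encoding an epidermal differentiation factor, at 0.087 and the mucin gene Muc15 at 0.095. For Cdkn2b they were Cnn2, a calponin gene, at 0.062, Deptor, encoding an inhibitor of mTOR, at 0.071 and the peptide receptor gene Vipr1 at 0.072. For Cdkn2c they were Prim2, a DNA primase gene, at 0.096, Ncapg2, a condensin gene, at 0.11 and the formin gene Diaph3 at 0.12. Cdkn1a and Cdkn2b differed from each other by 0.57, so their drop on the arrays numbered 3 differed in depth.

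The genes around the 10 were taken from 9 lists of 160 distinct genes, of which 151 had a feature of their own, and 0 passed the adjusted threshold in limma (0.00451% of all genes did). Genes that the retinoblastoma proteins and E2F control had differences above 0 throughout. For E2F targets of S phase all 23 measured lay above 0, with a median of 0.44 against -0.0075 over all genes. At an unadjusted p under 0.05, 3 were higher (1.93% of all genes) and 0 lower (0.843%). The replication helicase genes Mcm7, Mcm4 and Mcm6 differed by 0.54 ± 0.18, 0.54 ± 0.22 and 0.58 ± 0.25 (SE), and Cdc45, another replication gene, by 0.69 ± 0.24. Cdc45 read 8.0, 7.71 and 7.21 in WT and 8.30, 8.07 and 8.62 in TG. All 3 TG arrays lay above the WT arrays (3.99% of all genes did so), and the gap was widest on array 3.

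Mitotic genes that the DREAM complex represses had the highest median of the 9 lists, 0.71, with all 19 measured above 0. Of these, 10 were higher at an unadjusted p under 0.05 (1.93% of all genes) and 0 lower (0.843%). Birc5, encoding survivin, differed by 1.11 ± 0.35 (SE), and the mitotic kinase genes Plk1 and Bub1b by 0.83 ± 0.29 and 0.80 ± 0.24. Ube2c, encoding a ubiquitin-conjugating enzyme that acts in mitotic exit, differed by 0.83 ± 0.27. The list mean was 8.37, 8.05 and 7.73 in WT and 8.76, 8.28 and 9.24 in TG, with the arrays numbered 3 at both extremes. Cdkn2c and Rbl1 had their widest gap between genotypes on the same arrays. Without the arrays numbered 3 the median was 0.30 for the mitotic genes and 0.16 for the E2F targets, with 16 of 19 and 18 of 23 above 0. In that fit 5.92% of all genes were at an unadjusted p under 0.05. Of the mitotic genes 0 were higher at that limit and 1 lower, and 0 E2F targets were either. The median of the E2F family and DREAM subunit list moved from 0.28 to 0.054.

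Kinases, cyclins and their activators, the targets of the inhibitors, had 14 of 17 members above 0 (47.9% of all genes) and a median of 0.29. Of the 17, 2 were at an unadjusted p under 0.05 as higher (1.93% of all genes) and 0 as lower (0.843%). These were Ccnb2 and Cdk1, the cyclin B and kinase genes of mitosis, at 1.03 ± 0.36 and 0.90 ± 0.32 (SE), and Cdk1 and Ccnb2 also stand in the mitotic list. Ccnh, encoding the cyclin of the CDK-activating kinase, differed by 0.35 ± 0.15 and the phosphatase gene Cdc25a by 0.47 ± 0.21. Among E2F factors and DREAM subunits 12 of 17 lay above 0 (47.9% of all genes). In this list 1 had an unadjusted p under 0.05 (2.77% of all genes), E2f6, a repressive E2F gene, at 0.61 ± 0.22. Its partner gene Tfdp2 differed by 0.35 ± 0.15, Foxm1, encoding a mitotic transcription factor, by 0.66 ± 0.30 and the repressor gene E2f8 by 0.78 ± 0.37. Without the arrays numbered 3 these differences were smaller for E2f8 (0.15), E2f6 (0.28) and Foxm1 (0.42), as they were for Cdk1 (0.47) and Ccnb2 (0.58).

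Of the genes for enzymes that degrade the inhibitors, Skp2 stood farthest from 0 in units of its error. Skp2 is the F-box protein that marks p27 for destruction. It read 8.22, 8.27 and 8.25 in WT and 8.91, 9.01 and 8.65 in TG. The WT arrays were nearly level, and all 3 TG arrays lay above them (as they did for 3.99% of all genes). The difference was 0.61 ± 0.14 (SE, unadjusted p = 0.00366 and adjusted p = 0.99996 in limma), or 1.52-fold, and did not pass the threshold. Dtl, the substrate receptor of the ligase that degrades p21 in S phase, differed by 0.55 ± 0.18, its scaffold gene Cul4b by 0.70 ± 0.33 and Cul1, the scaffold gene of the Skp2 ligase, by 0.29 ± 0.15. In this list 8 of 10 lay above 0 (47.9% of all genes), with a median of 0.25. At an unadjusted p under 0.05, 2 were higher (1.93% of all genes) and 0 lower (0.843%).

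**Figure D4:**
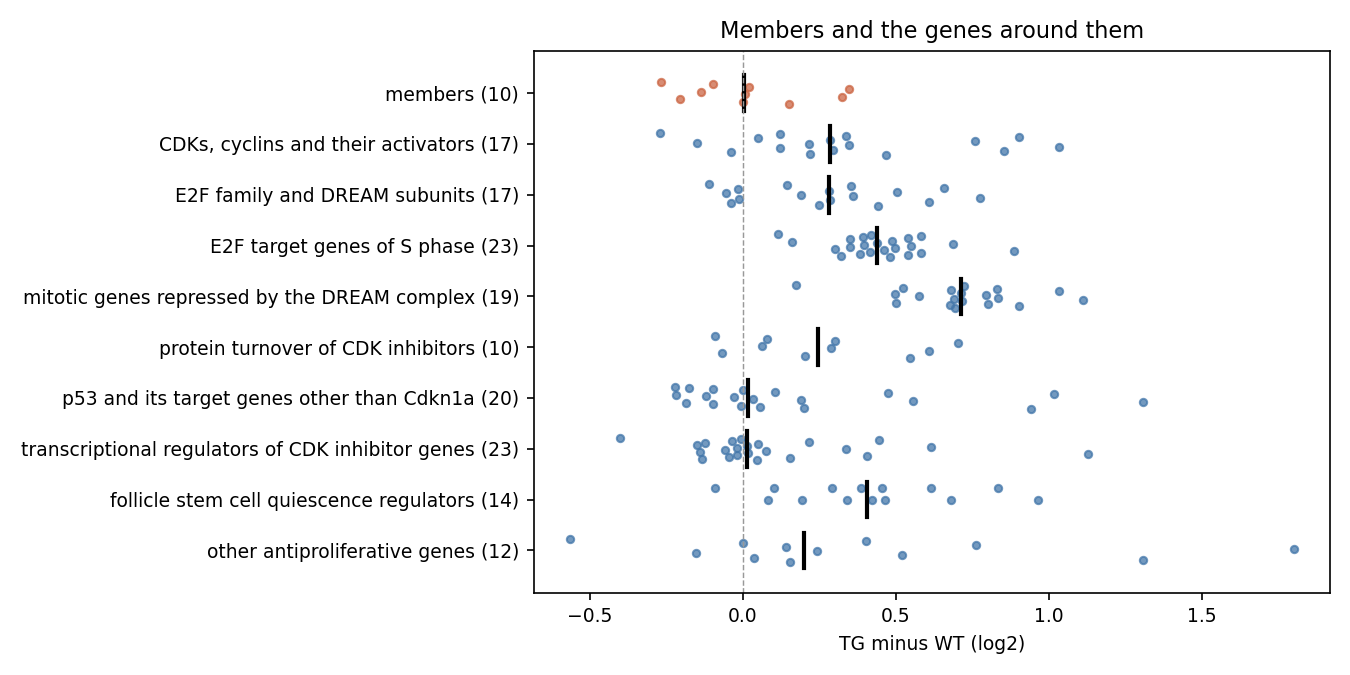
TG minus WT (log2, horizontal axis) of the 10 genes and of 9 lists around them, with 1 point per gene, a bar at the median and the number of measured genes in brackets. The 10 genes sit on both sides of 0 with a median of 0.0038, while all 23 E2F targets and all 19 mitotic genes lie above 0.

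Targets of p53 and regulators of the inhibitor genes lay on both sides of 0. Targets of p53 other than Cdkn1a had 11 of 20 above 0 (47.9% of all genes) and a median of 0.017. That median was -0.0048 with quantile normalization, and -0.038 to 0.19 when 1 array was left out. At an unadjusted p under 0.05, 1 of 20 was higher (1.93% of all genes) and 0 lower (0.843%). This was the antiproliferative gene Btg2, at 1.31 ± 0.45 (SE). The polo-like kinase gene Plk3 differed by 0.94 ± 0.44, the stress genes Sesn1 and Trp53inp1 by 0.56 ± 0.25 and 1.02 ± 0.59. WT array 1 was low for Trp53inp1, at 7.0 against 9.08 to 9.90 on the others, and without it the difference was 0.31, as it was for Sesn1. In this list 11 of 20 were lowest on array 3 in both genotypes, against 34.5% of all genes. Of 23 transcriptional regulators of the inhibitor genes 12 lay above 0, with a median of 0.014 (-0.031 with quantile normalization, and -0.060 to 0.12 when 1 array was left out). At an unadjusted p under 0.05, 1 was higher (1.93% of all genes) and 1 lower (0.843%). The higher was Id1, at 0.61 ± 0.25 (SE), which also stands in the quiescence list below, and the lower was Cbx7. Cbx7, a Polycomb gene whose product represses Cdkn2a, differed by -0.40 ± 0.13 (SE), with the WT arrays at 8.14, 8.0 and 8.11 and the TG arrays at 7.55, 7.74 and 7.76. All 3 TG arrays were below the WT arrays (3.21% of all genes were), with an unadjusted p of 0.0166 and an adjusted p of 0.99996 in limma. Its relative Cbx8 differed by 0.34 ± 0.30 (0.063 without WT array 1) and the immediate early factor gene Egr1 by 1.13 ± 0.55.

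Regulators of stem cell quiescence had 13 of 14 above 0 (47.9% of all genes) and a median of 0.40. At an unadjusted p under 0.05, 1 of 14 was higher (1.93% of all genes) and 0 lower (0.843%). This was Id1, an inhibitor of differentiation factors and a BMP target, at 0.61 ± 0.25 (SE). The median moved with the arrays used. Without the arrays numbered 3 it was 0.64, with 5 of 14 at an unadjusted p under 0.05 as higher. That fit put 5.92% of all genes under 0.05 in either direction. Leaving out 1 array gave a median of 0.17 (without WT array 2) to 0.80 (without WT array 3). With quantile normalization 0 of 14 were at an unadjusted p under 0.05. Id2 differed by 0.83 ± 0.55, and the transcription factor genes Runx1 and Foxc1 by 0.42 ± 0.26 and 0.39 ± 0.20. The list mean was higher on the arrays with more Cd34, at 8.56, 8.57 and 9.69 in WT and 9.74, 8.77 and 9.54 in TG. For TG minus WT, bulge stem cell markers had 9 of 10 above 0 and a median of 0.32. Suprabasal markers had 0 of 9 above 0 (median -0.41) and T cell markers 0 of 6 (median -0.15). The part of these marker differences in the quiescence list was not tested. Other antiproliferative genes had 9 of 12 above 0 and a median of 0.20. The stress gene Gadd45g differed by 1.80 ± 0.43 (SE), the cyclin G gene Ccng2 by 0.40 ± 0.17 and the differentiation gene Ndrg1 by -0.57 ± 0.27.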

How the data were processed

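The 6 samples were measured on GeneChip Mouse Gene 2.0 ST arrays, and genotype and replicate number come from the sample titles. The values are the expression values the authors deposited, on a log2 scale read from the values, with medians of 5.90 to 5.99 on the 6 arrays. The submitters' processing notes list Transcriptome Analysis Console and Affymetrix Expression Console 1.4.1. How they were summarised and scaled, and the log base, is not stated there, and fold changes hold only for base 2. Precision is limited by the number of arrays.

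Of 41345 features, 23521 named 1 gene, and the brightest per gene was used (22180 genes, no filter on low values). The genotypes were compared in R 4.3.3 using limma 3.58.1 (lmFit, eBayes, two-sided, Benjamini-Hochberg adjustment over all genes, threshold 0.05). Differences are TG minus WT with the standard error (SE) and the 95% interval of the fit. The exact two-sided permutation test of each of the 10 genes gave p from 0.3 to 1, where 3 against 3 arrays allow no less than 0.1. Levels of different probes are not compared.

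The members, the lists and the tests were chosen with earlier results of these data known. List genes were named by a rule, up to 4 per list with the smallest unadjusted p, and profile neighbours as the 3 closest of genes spanning at least 1 log2 unit. Skp2, Cdc45 and Cbx7 were given array by array after their values were seen. Deviations from the genotype means correlated at 0.20, 0.67 and 0.74 between arrays numbered 1, 2 and 3, so an alternative fit took the number as a replicate block. The value for WT array 1 and TG array 2 was 0.50, and the pairing rests on this check alone. Promoter windows are from RefSeq, with GRCm38.p6 coordinates, while the build behind the array values is not stated.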

Additional observations from a re-analysis of the deposited data

How the results depend on the processing

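Under the 14 alternatives 0 of the 10 genes and 0 list genes passed the adjusted threshold in limma. At an unadjusted p under 0.05 there were 2 of the 10 with array weights (Cdkn1b at 0.68 ± 0.18 and Cdkn2b at -0.54 ± 0.22, SE), where 14.1% of all genes were, and 1 without the arrays numbered 3 (Cdkn1b, 5.92% of all genes). Leaving out 1 array gave 0 to 1, the 1 being Cdkn1b without WT array 3 (0.61 ± 0.18). With the replicate block the count was 0 of the 10 (8.45% of all genes, against 2.77% without it), and the lowest adjusted p of the 10 was 0.733 in limma. The block changed no call at the adjusted threshold. At an unadjusted p under 0.05 as higher, the block gave 5 in place of 2 cyclins and kinases, 5 in place of 3 E2F targets, 3 in place of 1 E2F and DREAM subunits and 4 in place of 1 p53 targets. It also gave 3 in place of 2 for inhibitor turnover and 2 in place of 1 for regulators of the inhibitor genes. Other antiproliferative genes had 3 in place of 2 as higher and 1 in place of 0 as lower. Quantile normalization gave 6 in place of 10 mitotic genes, and the share of all genes in that fit was not counted. Without the arrays numbered 3, 5 p53 targets in place of 1 were higher, and 5 in place of 1 among regulators of the inhibitor genes. That fit put 5.92% of all genes under 0.05 in either direction, against 2.77% with all 6 arrays. These list counts were added after seeing the data. Genes past the adjusted threshold numbered 0 without the arrays numbered 3 and 0 to 1 when 1 array was left out, since Pla2g2a missed it without those 2 arrays (a difference of 6.33, adjusted p = 0.173 in limma) and when TG array 1 was left out (6.34, adjusted p = 0.065).

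The direction held in every alternative for Cdkn1b, Cdkn1c, Cdkn2b and Rbl1. It also held for the 35 other genes named from the lists or as the transgene check, except that E2f6 was not among the genes above the median level and so has no value there. The list genes were named for the smallest unadjusted p on these same arrays. That choice favours a steady sign, so their steadiness is no test of them. Of the 10 genes, 3 lay above 0 without the arrays numbered 3, and 4 to 7 when 1 array was left out. Without the arrays numbered 3, Cdkn2c turned to -0.12, Cdkn2d to -0.080, Rb1 to -0.15 and Rbl2 to 0.17. With array weights Rb1 was at -0.11 and Rbl2 at 0.094, with quantile normalization Cdkn2d was at -0.012, and as the mean of its features Rb1 was at -0.11. Leaving out 1 array gave -0.83 to 0.49 for Cdkn1a, -0.29 to 0.041 for Cdkn2a, -0.079 to 0.13 for Cdkn2d, -0.21 to 0.16 for Rb1 and -0.13 to 0.099 for Rbl2. The cause of these turns was not tested beyond the arrays left out. The values of array 3 against the other 2 were also computed after quantile normalization, chosen after seeing the data, which gave -1.87 in WT and -1.64 in TG for Cdkn1a, and -0.86 and -0.50 for Cdkn2b.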
